A study of Mus musculus with 1 sample.

Results

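Peroxisomes are small organelles that oxidise lipids and amino acids and break down the hydrogen peroxide this makes. The 32 genes described here encode proteins that build peroxisomes (peroxins, the Pex genes), proteins of their membrane, and enzymes of their interior, the matrix. They were chosen by symbol from an array annotation, with earlier results of these data known. All 32 had at least 1 probe, 33 probes in all, out of 19321 named genes on the array. The sample was parental RAW264.7, a mouse macrophage-like line, grown in RPMI-1640 with fetal calf serum and read on 1 single-colour Cy5 array. The study set these cells against lines derived from them with the mutagen ENU and selected for failure to take up labelled peroxiredoxin, a peroxide-removing enzyme. The mutant lines were not analysed here. A single array gives no replicate error and no comparison of lines, so no p-value is given and each reading is only as precise as 1 array allows.

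Matrix proteins are made in the cytosol and carry a short signal that import receptors recognise. The receptor docks at the peroxisome membrane, releases its cargo inside, is tagged with ubiquitin and is pulled back to the cytosol for another round. The matrix then shortens very long and branched fatty acids by beta-oxidation, takes a carbon off some branched chains by alpha-oxidation, and starts the synthesis of ether lipids such as plasmalogens, which are abundant in macrophage membranes. Several of the oxidases pass electrons straight to oxygen, and catalase removes the peroxide formed. Some matrix enzymes are known mainly from liver and kidney.

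Readings are spot medians in arbitrary units, with no background subtracted. A gene took its highest probe. The blank limit, 22.98, is the mean plus 2 SD of the array's blank spots, and the receptor limit, 55.8, was set at percentile 95 of 1224 probes for smell, pheromone and taste receptors, which a macrophage line has little known use for. Of the 2736 blanks themselves, 7.13% read over the blank limit and 0 over the receptor limit, and percentile 99 of the blanks was 24.8, so the readings of Hao1, Dao and 1 Pex11g probe lie within the range of empty spots. Readings of different probes depend on the probe as well as on the transcript, so members were set against the limits and not ranked. Of 10 macrophage markers checked, 9 passed both limits and Mertk lay between them at 23.3. Among 10 hepatocyte markers 2 passed the receptor limit, Fgb at 176 and G6pc at 79.3, while Alb read 23.9 and Ttr 19.4. Of 10 kidney tubule markers 0 passed it, with a range of 18.9 to 44.8. The blank limit alone was passed by 8 of the hepatocyte markers and 7 of the tubule markers, and by 72.8% of all named genes. The part of other cells in the member readings was not tested.

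Transcripts of the peroxisome genes gave signal in most cases. The blank limit was passed by 30 of 32 members (93.8%), against 72.8% of all named genes. The receptor limit was passed by 23 members (71.9%), against 42.8% of all named genes. With the receptor limit at percentile 99 of the same receptor probes, 10 of 32 members passed, against 27.6% of all named genes. Because the member list was made with earlier results of these data known, these shares are a description and not a test. The median member reading was 100.4, or 4.37 times the blank limit, and the median over all named genes was 40.1, or 1.74 times. The member multiple was 9.55 with local background subtracted and 1.74 with normexp background correction. The 2 members not over the blank limit were the oxidases Acox2 and Hao2, and 7 lay between the limits. All 13 Pex genes exceeded the blank limit and 11 of them the receptor limit, while 17 and 12 of the 19 other members did. Of all named genes, 30.1% lay between the limits.

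**Figure D1:**
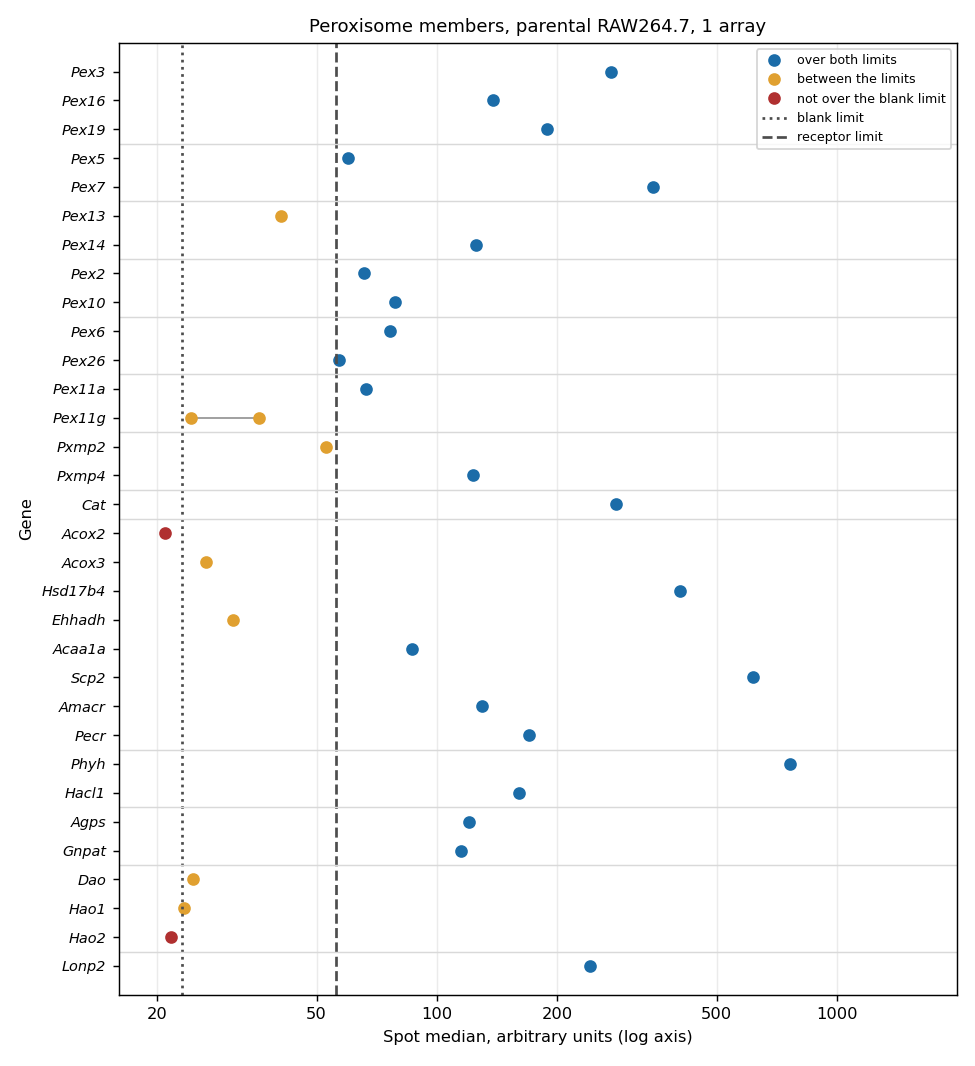
Spot median of each member probe (horizontal log axis, arbitrary units) in parental RAW264.7 cells on 1 array, with genes in blocks by role, from membrane insertion at the top to the protease Lonp2 at the bottom. The dotted line is the blank limit and the dashed line the receptor limit, the line joining 2 points links both Pex11g probes, and the Dao, Hao1 and Hao2 points lie at or near the blank limit.

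**Figure D2:**
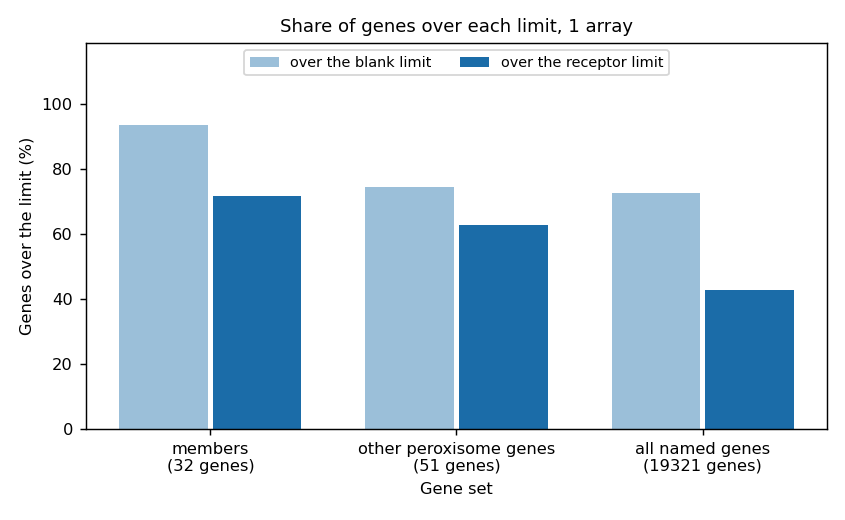
Share of genes (vertical axis, percent) over the blank limit (light bars) and over the receptor limit (dark bars) for the 32 members, 51 other peroxisome genes and all 19321 named genes. Members stood at 93.8% and 71.9%, other peroxisome genes at 74.5% and 62.7%, and all named genes at 72.8% and 42.8%.

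Sequences upstream of 4 members are shown as examples from either side of the limits, picked after the readings were seen. Scp2 and Cat were far over the receptor limit, and Hao1 and Hao2 lay at or under the blank limit. They are not the extremes, since Phyh and Pex7 read higher than Cat and Acox2 lower than Hao2. Each run holds the 250 bases before the annotated start, 5′ to 3′ on the gene's strand, from RefSeq on GRCm38.p6, and capitals mark CG dinucleotides.
Scp2 promoter (chr4:108118548-108118797, minus strand): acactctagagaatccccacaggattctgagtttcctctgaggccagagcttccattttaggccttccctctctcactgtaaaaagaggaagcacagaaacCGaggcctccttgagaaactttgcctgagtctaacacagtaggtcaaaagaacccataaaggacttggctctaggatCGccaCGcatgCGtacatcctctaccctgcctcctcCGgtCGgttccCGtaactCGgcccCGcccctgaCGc
Cat promoter (chr2:103485154-103485403, minus strand): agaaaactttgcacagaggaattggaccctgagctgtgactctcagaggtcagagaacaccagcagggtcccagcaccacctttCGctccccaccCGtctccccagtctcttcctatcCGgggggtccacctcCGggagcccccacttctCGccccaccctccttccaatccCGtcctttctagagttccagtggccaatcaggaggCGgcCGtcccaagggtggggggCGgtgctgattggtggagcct
Hao1 promoter (chr2:134554353-134554602, minus strand): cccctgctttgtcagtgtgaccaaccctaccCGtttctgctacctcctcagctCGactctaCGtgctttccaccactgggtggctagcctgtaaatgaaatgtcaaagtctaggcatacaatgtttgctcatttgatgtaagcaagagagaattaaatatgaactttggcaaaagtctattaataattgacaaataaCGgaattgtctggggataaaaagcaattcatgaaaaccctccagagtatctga
Hao2 promoter (chr3:98893231-98893480, minus strand): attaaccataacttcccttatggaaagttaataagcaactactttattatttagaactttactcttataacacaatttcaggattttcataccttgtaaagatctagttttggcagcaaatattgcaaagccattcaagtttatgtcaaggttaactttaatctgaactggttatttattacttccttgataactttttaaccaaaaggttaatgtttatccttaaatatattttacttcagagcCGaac
These stretches hold 10 CG dinucleotides before Scp2, 9 before Cat, 4 before Hao1 and 1 before Hao2. Such counts also depend on how many bases are G or C. In the slightly longer windows described below, that share was 62.0% for Cat and 44.0% for Hao1. Relative to the number expected from the bases, the CG dinucleotides there stood at 0.389 for Cat and 0.347 for Hao1. The ratio was 0.714 for Scp2 and 0.260 for Hao2. With 4 genes picked in this way, the counts do not show a link with signal. The comparison over more members follows the readings.

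Proteins that place membrane proteins into peroxisomes were all over both limits. Pex3 (probe M200013540), the membrane anchor on which new membrane proteins are delivered, read 273, and the authors' processed table gave 123 for it. Pex19 (probe M200009514), the cytosolic chaperone that carries those proteins, read 188 and stood at 81 in the authors' table. Pex16 (probe M300005521), a membrane protein that helps to recruit Pex3, read 138 with 57 in that table. These 3 readings were 11.9, 8.17 and 5.99 times the blank limit.

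The import receptors also passed both limits, though by unequal margins. Pex7 (probe M200000922), the receptor for the amino-terminal signal called PTS2, read 347, 6.22 times the receptor limit. Pex5 (probe M200004384), the receptor for the carboxy-terminal signal PTS1 that most matrix enzymes carry, read 59.8, which is 1.07 times the receptor limit. Pex5 was thus among the members nearest to that limit. The authors' table gave 159 for Pex7 and 19 for Pex5.

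At the docking site, Pex14 (probe M200001837), which binds the loaded receptor, read 125. Its partner Pex13 (probe M200006225) lay between the limits at 40.6, or 1.77 times the blank limit. The RING-domain ubiquitin ligases Pex2 (probe M300012629) and Pex10 (probe M400001133), which tag the receptor for its return, read 65.8 and 78.6 and passed both limits. They stood at 1.18 and 1.41 times the receptor limit.

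Return of the receptor to the cytosol depends on ATPase activity and a membrane anchor. Pex6 (probe M200013533), an ATPase of this step, read 76.3, or 1.37 times the receptor limit. Pex26 (probe M200007645), the anchor, read 56.8, which is 1.02 times that limit and the smallest margin among the 23 members over it.

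Pex11 proteins elongate peroxisomes before they divide. Pex11a (probe M200003929) read 66.3 and passed both limits. Pex11g had a pair of probes, M400000092 at 35.9 and M400019223 at 24.2, and both lay between the limits, at 1.56 and 1.05 times the blank limit. Pex11g was the only member with more than 1 probe, so no other member had a second reading.

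Of the membrane proteins outside the peroxin family, Pxmp4 (probe M200004970), a peroxisomal membrane protein, read 123 and passed both limits. Pxmp2 (probe M200004233), which forms a channel for small solutes in the mouse peroxisome membrane, lay between the limits at 52.9, or 0.949 times the receptor limit. The members closest to the receptor limit were therefore Pxmp2 just under it, and Pex26 and Pex5 just over it.

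Catalase, the haem enzyme that splits hydrogen peroxide and the best known marker of the matrix, gave clear signal. The Cat probe (M300005501) read 281, 12.2 times the blank limit and 5.03 times the receptor limit, and the authors' table gave 126. The matrix protease Lonp2 (probe M300018689), which takes part in quality control of matrix proteins, read 242 and stood at 108 in the authors' table.

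In the group for beta-oxidation and chain reduction, 7 of 8 members exceeded the blank limit, 5 of them the receptor limit as well. The first step is made by acyl-CoA oxidases, which release peroxide. Acox3 (probe M400001136), the oxidase for methyl-branched chains such as pristanic acid, lay between the limits at 26.5, or 1.15 times the blank limit. Acox2 (probe M200006134), which acts on bile acid precursors and is known from liver, stayed under the blank limit at 20.9 and has an empty cell in the authors' table.

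The middle steps are carried by 2 bifunctional enzymes, and their readings fell on different sides of the receptor limit. Hsd17b4 (probe M200001232), the D-bifunctional protein used for branched and very long chains, read 406, or 7.28 times the receptor limit. Ehhadh (probe M200005832), the L-bifunctional protein, lay between the limits at 31.0, or 0.556 times that limit. The authors' table gave 187 for Hsd17b4 and 5 for Ehhadh.

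The last step is a thiolase cleavage, and both thiolase genes among the members passed both limits. Scp2 (probe M300006187), which encodes sterol carrier protein 2 and the thiolase SCPx that handles branched chains, read 616, or 26.8 times the blank limit. Acaa1a (probe M400001878), a 3-ketoacyl-CoA thiolase, read 86.3. Its near-identical paralog Acaa1b stayed under the blank limit at 20.7. Whether either probe also binds the transcript of the other gene was not tested, so both readings are uncertain.

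The supporting enzymes of the same group, Amacr and Pecr, passed both limits as well. Amacr (probe M300003163), the racemase that makes methyl-branched chains fit for the oxidases, read 130. Pecr (probe M300004977), a trans-2-enoyl-CoA reductase linked to chain elongation, read 170. They stood at 2.33 and 3.05 times the receptor limit.

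Both enzymes of alpha-oxidation, by which phytanic acid loses a carbon, passed both limits. Phyh (probe M200005407), phytanoyl-CoA hydroxylase, read 761, and Hacl1 (probe M200008132), the 2-hydroxyacyl-CoA lyase that follows, read 161. Local background at the Phyh spot was high, 564, so the spot was 1.35 times its surroundings. After subtraction it was 197, or 7.31 times the receptor limit recomputed on subtracted values. The brightest of the 8 spots around it, a Prelid1 probe, read 3212. Bright neighbours were not particular to Phyh. The brightest adjacent spot read 6922 at Gnpat, 6542 at Pex19, 5027 at Pex7 and 3995 at Pex26. It read 205 at Scp2 and 156 at Lonp2. The part of neighbouring spots in the readings of Phyh and the other members was not tested.

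Genes for the first steps of ether lipid synthesis gave readings over both limits. Gnpat (probe M200006330), the acyltransferase that begins the pathway, read 115, and Agps (probe M300013677), which exchanges the acyl for an alkyl chain, read 120. Local background was 67.0 at the Gnpat spot and 25.4 at the Agps spot. These readings were 2.05 and 2.15 times the receptor limit.

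None of the 3 remaining oxidases passed the receptor limit. Dao (probe M300013502), D-amino acid oxidase of kidney and brain, read 24.6, or 1.07 times the blank limit. Hao1 (probe M200005313), the glycolate oxidase of liver, read 23.3, or 1.01 times that limit, and Hao2 (probe M200003883), an oxidase of longer 2-hydroxy acids known from kidney and liver, read 21.6 and did not pass. The authors' table gave 2 for Dao, 1 for Hao1 and an empty cell for Hao2. The Dao spot was 1.03 times its local background, and after subtraction Dao was not over the blank limit. Low readings can come from a probe that responds poorly as well as from a scarce transcript, and which of these holds was not tested.

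Local background varied with the spots and bears on each reading. At 9 of 33 member probes it was over 55.8, against 21.7% of all gene probes. The median ratio of spot to local background was 2.36 over member probes and 1.43 over all gene probes, and among members it ran from 1.03 for Dao to 11.1 for Scp2. Local background was also subtracted from spots, blanks and receptor probes alike. The same count of 23 members then passed the receptor limit, against 41.4% of all named genes. The blank limit was passed by 28 members, because Acox3 and Dao no longer did, and by 63.2% of all named genes.

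**Figure D3:**
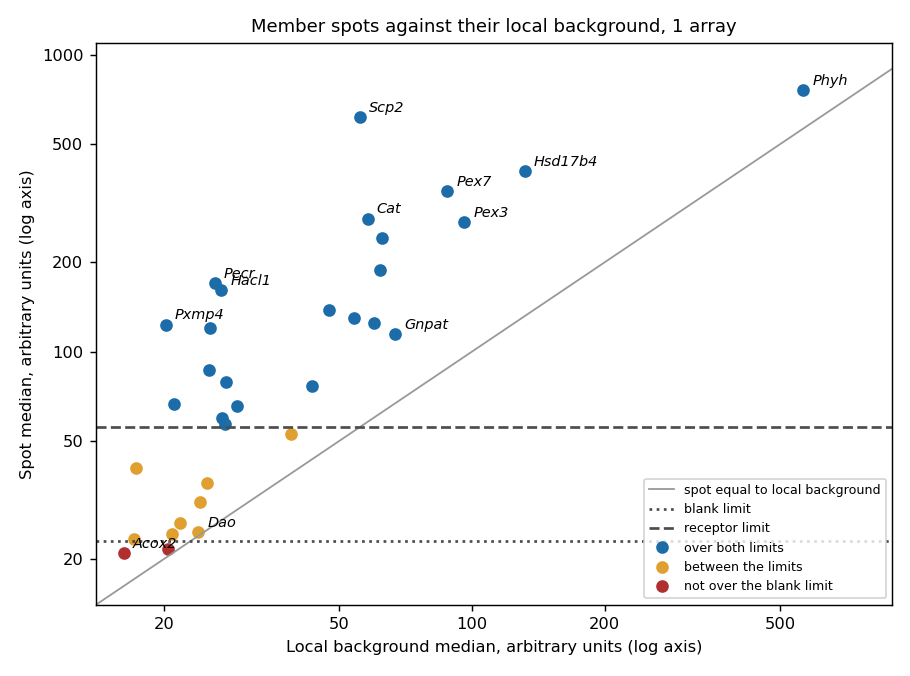
Spot median (vertical log axis) against local background median (horizontal log axis), both in arbitrary units, for the 33 member probes on 1 array, with the solid line where the 2 are equal. Phyh has the highest local background among them, 564, Scp2 stands 11.1 times over its own, and Dao lies almost on the line.

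Genes of the peroxisome outside the 32 members were taken as a list of 60 symbols, of which 51 were measured. The blank limit was exceeded by 38 of them (74.5%) and the receptor limit by 32 (62.7%), against 72.8% and 42.8% of all named genes. At the blank limit the share is thus about that of all genes. Their median reading was 104.7. Transporters of the membrane were mostly over both limits. The fatty acyl-CoA transporters Abcd3 and Abcd2 read 440 and 128, Abcd4, a relative known mainly from lysosomes, read 94.2, and Slc25a17, a carrier of coenzymes, read 669. Proteins that divide both peroxisomes and mitochondria were over both limits too, with the receptors Mff and Fis1 at 1499 and 822 and the dynamin-like Dnm1l at 195.

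Enzymes of that list fell on both sides. The isomerases Ech1 and Eci2, which prepare unsaturated chains, read 719 and 388, the carnitine acyltransferases Crot and Crat read 255 and 71.4, and the NADPH-forming Idh1 read 735. The processing protease Tysnd1 read 210. Fatty acyl-CoA reductase Far1, which supplies alcohols to ether lipid synthesis, read 649 on 1 probe and 23.7 on the other, and its paralog Far2 read 20.1. Probes of Nudt19, at 441 and 50.6, of Nudt12, at 39.2 and 19.8, and of Zfand6, at 602 and 22.9, also disagreed on a limit.

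The 13 genes of the list not over the blank limit include further enzymes known from liver and kidney. Urate oxidase Uox read 19.1, D-aspartate oxidase Ddo 21.7, pipecolic acid oxidase Pipox 18.8, the bile acid conjugating enzyme Baat 21.6 and the acyl-CoA synthetase Slc27a2 18.4. The thioesterases Acot4, Acot5 and Acot12 read 21.4, 21.1 and 19.9, and Eci3 read 18.4. Pmvk, an enzyme of the mevalonate pathway, read 18.9 although Mvk of the same pathway read 173. Pex5l, a Pex5 relative of brain, read 22.97 against the blank limit of 22.98. Agxt, the glyoxylate transaminase of liver, lay between the limits at 42.9.

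**Figure D4:**
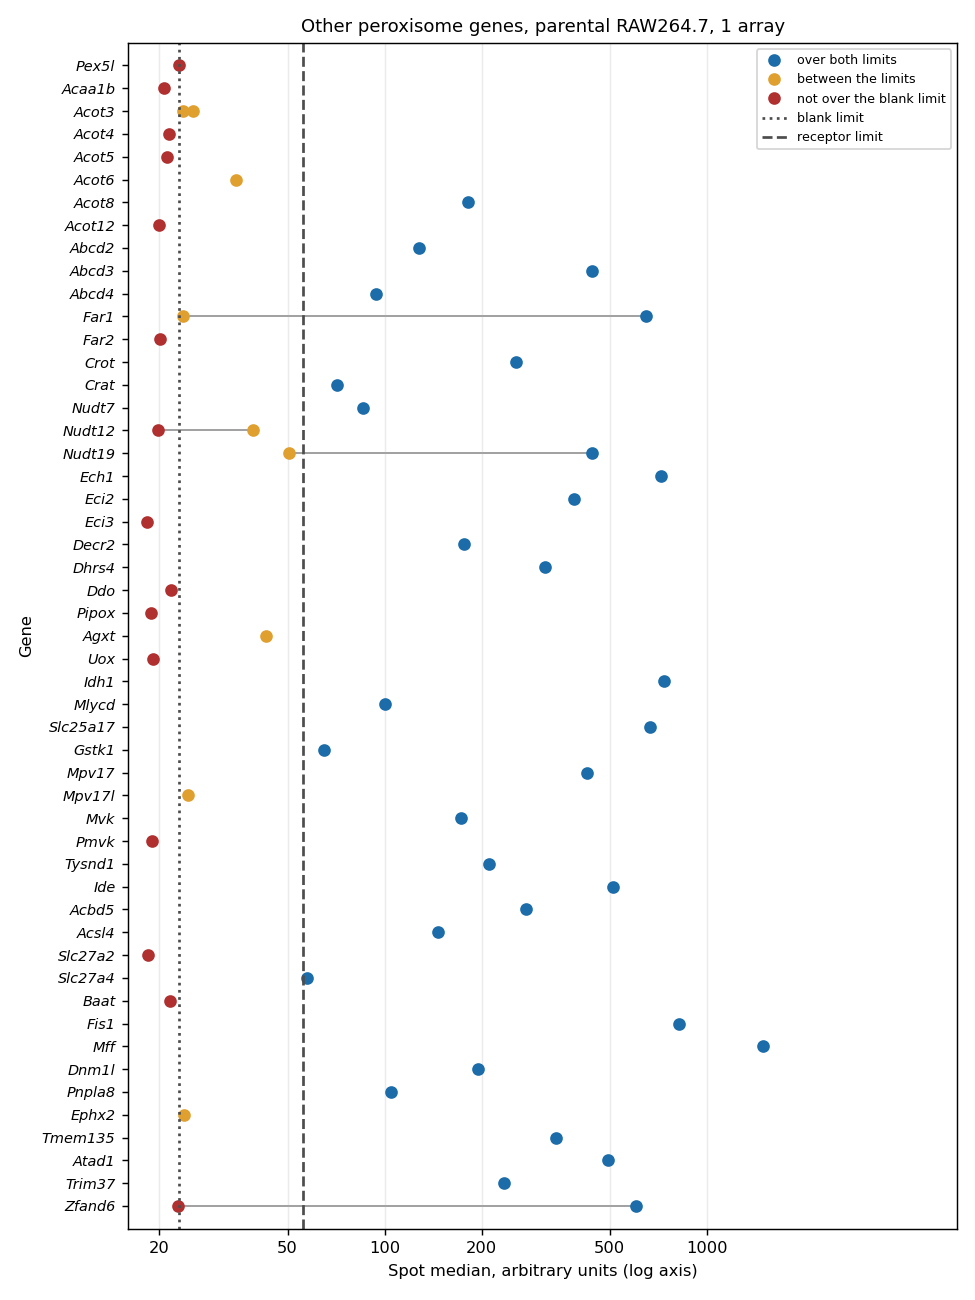
Spot median of each probe (horizontal log axis, arbitrary units) for the 51 measured peroxisome genes outside the members on 1 array, with a line joining probes of the same gene. Mff reads 1499 at the right, 13 genes have no probe over the blank limit, and the Far1, Nudt12, Nudt19 and Zfand6 probes fall on different sides of a limit.

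PPAR nuclear receptors and their partners control many peroxisomal genes in liver. Of 8 such genes, 5 exceeded the blank limit, 2 of them also the receptor limit. These shares, 62.5% and 25%, stand beside 72.8% and 42.8% of all named genes, and 8 genes are too few to set the list apart. Ppara, the form that drives peroxisome growth in rodent liver, read 19.5 and Pparg read 19.1, and neither passed the blank limit, nor did either probe of the coactivator Ppargc1a, at 18.1 and 21.1. Ppard lay just over it at 23.5. The partner receptor Rxrb, at 189, and the coactivator Ppargc1b, at 165, passed both limits, while Rxra and Rxrg lay between them at 41.3 and 27.9.

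Promoter sequence was available in RefSeq for 27 of the 32 members, in windows of 300 bases from 250 before to 50 after each annotated start. A window was called CG-rich where at least 50% of its bases were G or C and its CG dinucleotides reached 0.6 of the number expected from its bases, and a gene where any of its windows was. This comparison was chosen after the readings were known. The receptor limit was exceeded by 11 of 14 CG-rich members (78.6%), against 8 of 13 others (61.5%), and the blank limit by 14 and 11. Over the 15159 named genes with a promoter sequence, 62.0% of 8027 CG-rich genes and 23.0% of 7132 others passed the receptor limit. The blank limit was passed by 86.4% of these CG-rich genes and 58.5% of the others.

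Of the members at or near the blank limit, Acox2, Hao2, Hao1 and Dao had few CG dinucleotides for their bases. The ratio of observed to expected was 0.163 and 0.0915 in the windows of Acox2, 0.260 for Hao2, 0.347 for Hao1 and 0.118 to 0.494 over the windows of Dao. Low ratios also occurred in members far over the receptor limit, with 0.389 for Cat, 0.422 for Pxmp4 and 0.495 for Phyh. High ratios occurred near the blank limit, with 0.876 for Acox3 at 26.5 units and 0.840 for Pex11g, whose probes read 35.9 and 24.2. Pex7 and Pex14, at 0.965 and 0.870, were not called CG-rich because 44.0% and 46.3% of their bases were G or C. These values are a description over genes of 1 array.

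**Figure D5:**
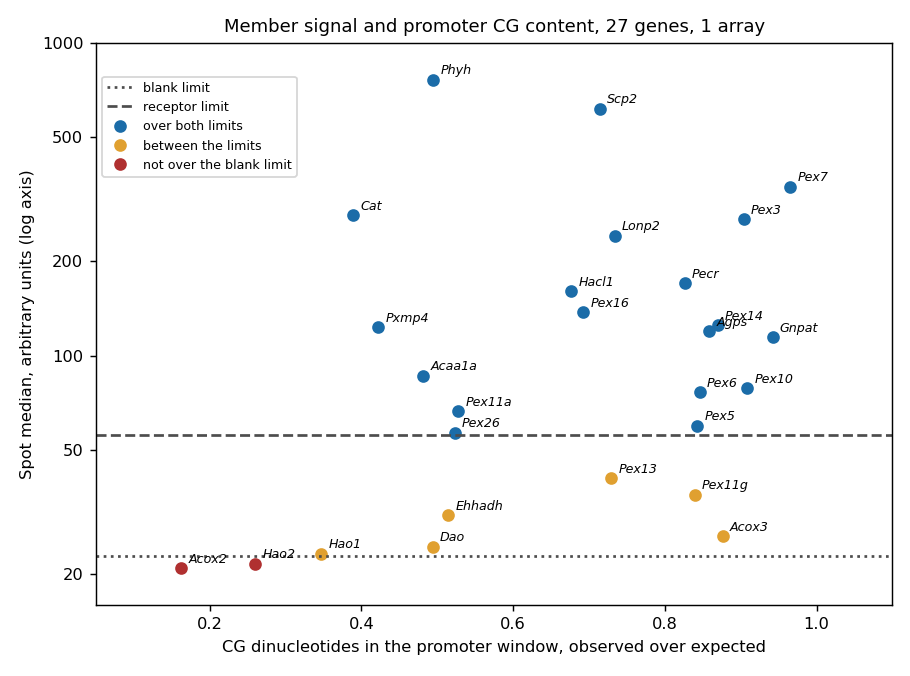
Spot median of the highest probe (vertical log axis, arbitrary units) against the observed over expected ratio of CG dinucleotides in the promoter window with the highest ratio (horizontal axis), for the 27 members with a promoter sequence on 1 array. Acox2, Hao2 and Hao1 lie at low ratios near the blank limit, while Cat, Pxmp4 and Phyh have low ratios and readings over the receptor limit.

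Short motifs were searched on both strands of these windows. The exact DR1 string of PPAR elements is 2 copies of AGGTCA in the same direction with 1 base between them. It was in 0 of 27 members and in 0.0594% of the 15159 named genes with a promoter sequence. At so low a share, 0 of 27 members cannot tell whether the members carry PPAR elements. The single AGGTCA, which lies within DR1, was in 5 members (18.5%) and in 16.1% of those named genes. These 5 members were Cat, Dao, Pex11g, Phyh and Scp2. GGGCGG, the GC box, was in 21 members (77.8%) and in 53.4% of those named genes. CCAAT was in 12 members (44.4%) and 41.9% of those named genes, TATAAA in 3 members (11.1%) and 13.8%, and CACGTG in 3 members (11.1%) and 9.64%. Over all 32851 promoter windows taken singly, the shares were 0.0396% for DR1, 16.3% for AGGTCA, 35.7% for GGGCGG, 37.4% for CCAAT, 13.6% for TATAAA and 7.15% for CACGTG. A gene with several starts has more windows in which to match, and a match here is a match of letters only.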

How the data were processed

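One sample was measured on 1 array, in the group of parental RAW264.7 cells. Per the labels' protocols, amplified amino allyl RNA was coupled to Cy5 and handled by the protocol of Toray. Per the file headers, the deposited scanner intensity is the median of each spot and of its local background, with nothing subtracted, read at 3 gains. How these were combined is not given here. A processed intensity table of the same array was deposited by the authors too, with scale and floor unstated. Compared with the scanner file, its 16689 whole numbers equal about the spot median less the blank mean, times 0.486 (mean over 2987 probes with values over 200), and its 6784 empty cells are probes at 22.97 or lower, so values are linear. Its median is 25. Why that factor was used stays unknown.

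The blank limit used 2464 of 2736 blanks, after 5% were left out at each end (mean 20.6, SD 1.18, limit 22.98). Spots of a probe were averaged. No spot carried a bad flag (0 of 27456). Gene names came from the platform annotation, which gave 20690 of 23473 gene probes 1 symbol each, 0 of them several and 2783 none. The RefSeq table of GRCm38.p6 held 20556 of these probes' genes and was used for names and promoters. No build is named for the probes. Members and lists were chosen with earlier results of these data known. All 32 members are named, and any gene of the other peroxisome, PPAR and marker lists could be. Protein features of the members were planned and not run, because no protein table was used here.

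Calls were computed in Python 3.11.15 with numpy 2.4.6 and pandas 2.3.3, tested on simulated data, and figures drawn with matplotlib 3.10.9. Normexp used limma 3.58.1 in R 4.3.3 with an offset of 50. No test was made, because there is 1 array. The 12 alternatives changed the blank limit, its source, the receptor percentile, the background treatment, the values and the probe rule.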

Additional observations from a re-analysis of the deposited data

How the results depend on the processing

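Over 12 alternatives, members over the blank limit numbered 28 to 30 of 32, against 63.2% to 77.2% of all named genes. Members over the receptor limit numbered 23 or 24, against 40.4% to 49.6% of all named genes, with a single exception. The exception was the 99th percentile of the receptor probes, a higher limit. It left 10 of 32 members, 24 of 51 other peroxisome genes and 27.6% of all named genes over it. With that percentile 19 members kept their side of both limits. Outside that setting 4 members changed side in some alternative, namely Acox3, Dao, Hao1 and Pxmp2. The median member reading, 4.37 times the blank limit, was 9.55 times with local background subtracted and 1.74 times with normexp, which both rescale the limit by their construction. The authors' table gives no blank limit to divide by, so it has no such value. No paired analysis was possible because there is 1 sample. One array and, for 31 members, 1 probe limit each reading to its distance from the limits.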
